A study of Rattus norvegicus with 12 samples.

Results

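The expression of 10 genes of the Notch pathway was examined in the cerebral cortex of adult male Sprague Dawley rats after embolic stroke. They were the ligands Dll1, Dll4, Jag1 and Jag2, the receptors Notch1 and Notch2, and the target genes Hes1, Hes5, Hey1 and Hey2, which are 10 of the 17268 genes in the table of counts. The members were chosen by their place in the pathway, with fold changes from these same libraries already known, so their levels and differences are given as a description, with no p-value. Where a member is said to be called, that describes its size and spread in values already known and is no test of it. All 10 were found in the table by gene symbol.

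Poly(A) RNA was sequenced from 12 libraries in 4 groups of 3. Sham rats had the vessel surgery without injection of a clot. Model rats had a preformed blood clot injected at the origin of the middle cerebral artery and were left untreated. rt-PA rats had the same clot and then intravenous recombinant tissue plasminogen activator, the drug that dissolves clots, at 6 h, which is later than its usual time window. rt-PA+Acu rats had the clot, Xingnao Kaiqiao acupuncture at the Shuigou (GV26) and Neiguan (PC6) points at 2 h, and rt-PA at 6 h. No group had acupuncture without rt-PA, and the clot came from a donor rat.

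Notch is a receptor that is read by cell contact. A ligand of the Delta-like or Jagged family on a neighbouring cell pulls on the receptor, proteases then cut it, and the freed intracellular domain enters the nucleus, where it joins the DNA-binding protein RBPJ and a Mastermind coactivator to switch on Hes and Hey genes. The Hes and Hey proteins are basic helix-loop-helix repressors that hold back differentiation genes and can bind their own promoters. In brain the pathway is known for keeping radial glia and neural stem cells undifferentiated, for its part in astrocytes, and, through Dll4, Jag1, Notch1 and Notch4, for the choice between tip and stalk cells in growing vessels.

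RefSeq promoters of 300 bases (build GRCr8, 250 bases before to 50 after the annotated start) were at hand for 8 of the 10 members, without Hey1 and Dll4. The letters GTGGGAA, a core to which RBPJ binds, were looked for on both strands, together with the shorter TGGGAA that lies inside them. GTGGGAA was found for 4 members, Hes1, Hes5, Hey2 and Dll1, against 6.29% of the 33469 promoters in the table, and TGGGAA for the same 4, against 25.7%. The 250 bases before the start are shown for the 3 target genes, whose levels differed from one another across the groups, with TGGGAA or its complement TTCCCA in capitals.
Hes1, chr11:84213046-84213295, minus strand: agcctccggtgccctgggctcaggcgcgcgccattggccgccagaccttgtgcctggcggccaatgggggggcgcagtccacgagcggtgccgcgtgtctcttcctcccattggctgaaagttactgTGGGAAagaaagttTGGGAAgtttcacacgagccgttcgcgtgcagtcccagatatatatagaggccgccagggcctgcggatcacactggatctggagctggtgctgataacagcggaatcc
Hes5, chr5:170804327-170804576, plus strand: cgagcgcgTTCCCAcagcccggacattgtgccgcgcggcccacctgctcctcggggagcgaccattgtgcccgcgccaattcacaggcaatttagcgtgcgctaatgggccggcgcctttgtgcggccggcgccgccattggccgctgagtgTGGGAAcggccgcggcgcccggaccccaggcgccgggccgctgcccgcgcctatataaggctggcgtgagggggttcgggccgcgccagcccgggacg
Hey2, chr1:28640850-28641099, plus strand: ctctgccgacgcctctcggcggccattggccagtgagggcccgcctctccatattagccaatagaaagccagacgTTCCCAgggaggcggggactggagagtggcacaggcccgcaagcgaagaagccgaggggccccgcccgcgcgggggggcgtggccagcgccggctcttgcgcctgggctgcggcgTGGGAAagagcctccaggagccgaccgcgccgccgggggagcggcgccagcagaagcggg

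Counting back from the start, TGGGAA began at -123 and -109 in Hes1, both in the same direction and the first of them within GTGGGAA. In Hes5 the matches began at -242 and -98, and both lay within GTGGGAA or its complement. In Hey2 they began at -175 and -60, with GTGGGAA at -61 only. Dll1 was the ligand with matches, at -185 and -82, whereas Notch1, Notch2, Jag1 and both annotated starts of Jag2 had none in this window. The N box CACNAG, to which Hes repressors bind, was found in Hes1 and Notch1 and in 43.1% of all promoters. The related letters CACGNG, which can overlap CACNAG, were found in Hes1, Notch1, Notch2, Dll1, Jag1 and 1 start of Jag2, and in 26.1% of all promoters. Hes1 held 4 matches of each, and Hes5 and Hey2 held none of either. These are matches of letters, and no binding was measured.

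Levels are given as CPM, a gene's count per 1000000 counts of its library after scaling by the trimmed mean of M values (TMM), and they compare a gene with itself across libraries only, since they are not divided by gene length. Library totals ranged from 11678450 to 13616935 counts. The label names cerebral cortex. All 9 neuronal markers were counted in every group, which shows neurons but not their region. Their summed level was 9699 to 10273 CPM in Sham, 6587 to 6702 CPM in Model, 5075 to 6479 CPM in rt-PA and 6759 to 9947 CPM in rt-PA+Acu. Striatal neurons were seen beside the labelled cortex, since 6 of their markers were counted and summed to 369 to 968 CPM in Sham and 155 to 289 CPM in the 9 libraries with a clot. All 6 were called lower in Model than in Sham, and one of them, the dopamine receptor gene Drd2, ran from 3.96 to 48.8 CPM within Sham. The part of striatal tissue in every difference from Sham below was not tested. In whole tissue, fewer cells of a type and less RNA per cell cannot be told apart.

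Among the ligands, Dll4, the Delta-like ligand of endothelial tip cells and arteries, varied most between groups. Its level in the Sham libraries was 6.06, 4.82 and 5.33 CPM. In Model it was 4.73, 7.86 and 20.3 CPM, and in rt-PA 15.7, 11.9 and 10.4 CPM. In rt-PA+Acu it was 1.77, 2.09 and 2.84 CPM. The 3 rt-PA+Acu libraries thus lay below all 9 others and the 3 rt-PA libraries above all of Sham, while Model spanned both, with replicate 3 the highest of the 12 libraries and replicate 1 the lowest outside rt-PA+Acu. The group means were 5.40 ± 0.62 CPM (SD, n = 3) for Sham, 11.0 ± 8.25 CPM for Model, 12.7 ± 2.72 CPM for rt-PA and 2.23 ± 0.55 CPM for rt-PA+Acu. The counts behind these levels were 21 to 38 per library in rt-PA+Acu and 141 to 226 in rt-PA.

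Jag1, the Jagged ligand of endothelium, smooth muscle and astrocytes, was highest in rt-PA. It measured 18.8, 12.5 and 14.9 CPM in Sham, 13.9, 15.0 and 17.6 CPM in Model, 24.4, 17.7 and 20.6 CPM in rt-PA, and 15.3, 10.9 and 12.9 CPM in rt-PA+Acu. The rt-PA libraries did not overlap with Model or rt-PA+Acu, although the lowest of them stood at 17.7 CPM beside a highest Model value of 17.6. The other 3 groups overlapped with one another.

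Jag2, the second Jagged ligand, was lowest in rt-PA+Acu. It measured 60.5, 49.3 and 49.7 CPM in Sham, 54.9, 57.8 and 60.0 CPM in Model, 58.5, 41.3 and 57.6 CPM in rt-PA, and 30.7, 39.9 and 41.3 CPM in rt-PA+Acu. These last 3 lay below all Sham and Model libraries and met the lowest rt-PA library. Dll1, the Delta-like ligand of neural progenitors, showed no order that its spread allowed. It ranged from 4.02 to 4.67 CPM in Sham, 3.36 to 7.52 CPM in Model, 3.08 to 5.20 CPM in rt-PA and 4.12 to 9.06 CPM in rt-PA+Acu, and every group overlapped with its neighbour in the order of means.

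**Figure D1:**
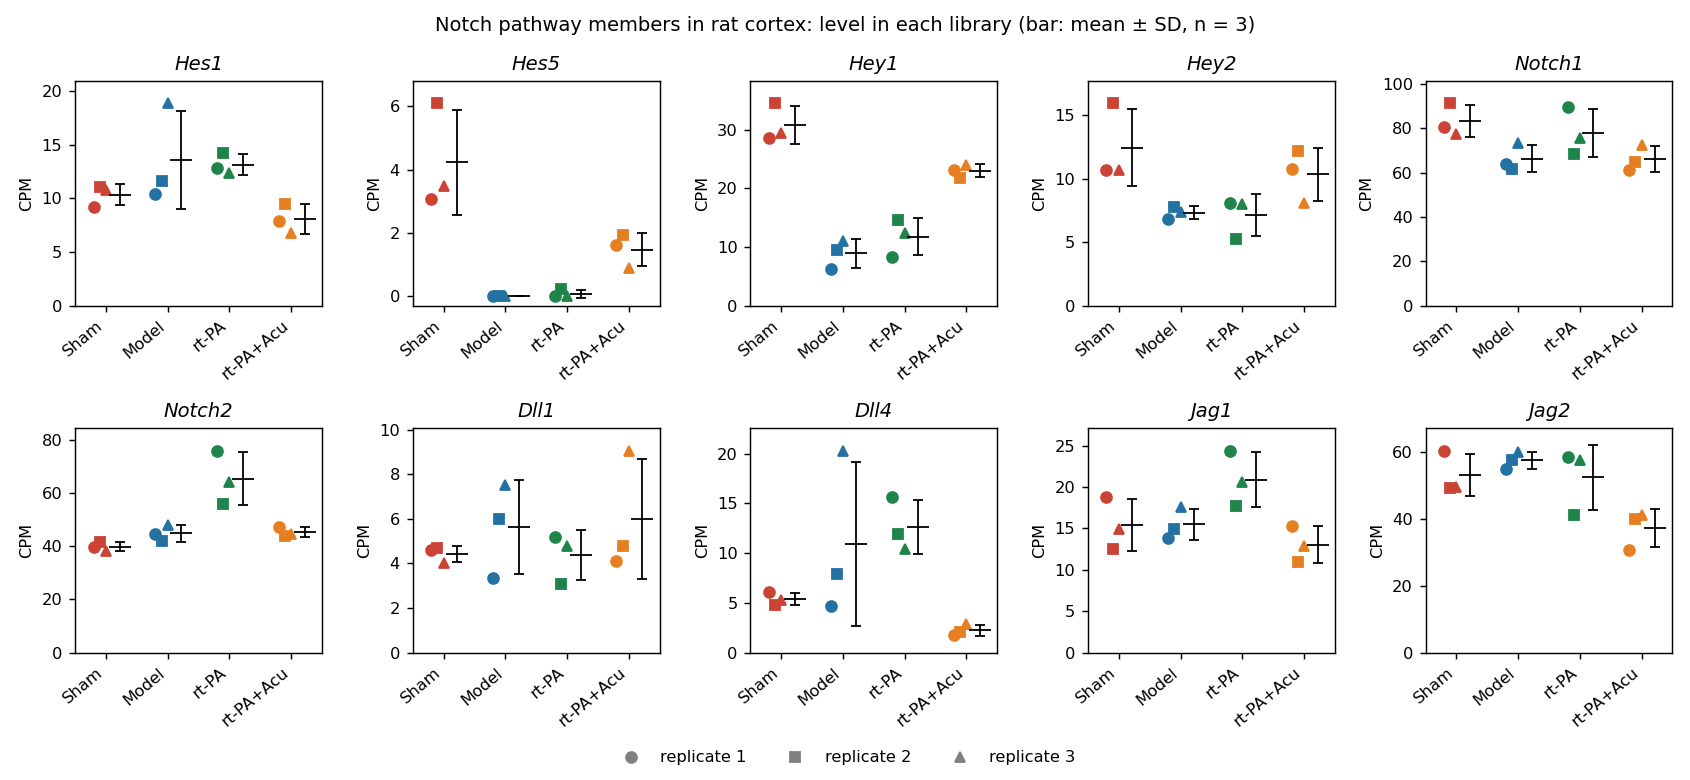
Level of each member in each library, in CPM on a linear axis, with the 3 replicates of a group as circle, square and triangle and the mean ± SD (n = 3) beside them. Hes5 lies at 0 in all Model libraries, Hey1 is lowest in Model and rt-PA, and Dll4 is lowest in rt-PA+Acu with Model replicate 3 at the top.

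The receptors moved within narrower limits. Notch2 measured 39.6, 41.6 and 38.3 CPM in Sham, 44.7, 41.8 and 47.8 CPM in Model, 75.9, 55.9 and 64.2 CPM in rt-PA, and 47.3, 43.8 and 44.5 CPM in rt-PA+Acu. Every rt-PA library was above all 9 others, and Sham was below the rest, though its highest library, at 41.6 CPM, nearly met the lowest Model library at 41.8 CPM. Notch1, the best studied receptor of neural stem cells and endothelium, measured 80.7, 91.2 and 77.5 CPM in Sham, 64.0, 61.6 and 73.3 CPM in Model, 89.6, 68.6 and 75.6 CPM in rt-PA, and 61.2, 65.0 and 72.5 CPM in rt-PA+Acu. Sham was above Model and rt-PA+Acu without overlap, and rt-PA overlapped with all 3 other groups.

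Both receptors share libraries, so their ratio does not depend on the scaling. Notch1 counts per Notch2 count, with no correction for gene length, were 2.04, 2.20 and 2.03 in Sham, 1.43, 1.47 and 1.53 in Model, 1.18, 1.23 and 1.18 in rt-PA, and 1.29, 1.48 and 1.63 in rt-PA+Acu. The 3 libraries of Sham were the highest and the 3 of rt-PA the lowest, whereas Model lay inside the range of rt-PA+Acu.

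The target genes did not vary as 1 group. Hes5, a target that astrocytes and neural stem cells express and that depends closely on Notch, had 38, 80 and 40 counts in the Sham libraries, and 0 counts in each of the 3 Model libraries. In rt-PA it had 0, 3 and 0 counts, and in rt-PA+Acu 19, 22 and 12. These correspond to 3.07, 6.12 and 3.49 CPM in Sham and 1.60, 1.92 and 0.898 CPM in rt-PA+Acu, so that rt-PA+Acu lay above all Model and rt-PA libraries and below all Sham libraries. A count of 0 allows up to 3 counts, or 0.229 to 0.254 CPM in the Model libraries, which puts the mean Sham level at least 17.4-fold higher than Model. These limits cover counting error only.

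Hey1, a target with roles in vessels and astrocytes, followed the same order with more counts. It measured 28.6, 34.5 and 29.4 CPM in Sham, 6.26, 9.47 and 11.1 CPM in Model, 8.32, 14.6 and 12.4 CPM in rt-PA, and 23.2, 21.8 and 24.0 CPM in rt-PA+Acu. Model and rt-PA overlapped, and both lay below rt-PA+Acu, which lay below Sham, without overlap. Hey2, the target best known from arteries and heart, measured 10.7, 15.9 and 10.7 CPM in Sham, 6.79, 7.78 and 7.35 CPM in Model, 8.11, 5.24 and 8.03 CPM in rt-PA, and 10.8, 12.2 and 8.08 CPM in rt-PA+Acu. Model lay below Sham and below rt-PA+Acu, in the latter case by 7.78 against 8.08 CPM, and rt-PA+Acu overlapped with Sham.

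Hes1, a target that many signals besides Notch induce, had another order. It measured 9.21, 11.0 and 10.7 CPM in Sham, 10.4, 11.6 and 18.8 CPM in Model, 12.8, 14.2 and 12.4 CPM in rt-PA, and 7.91, 9.50 and 6.74 CPM in rt-PA+Acu. The rt-PA libraries were above all of Sham and rt-PA+Acu, and Model overlapped with Sham and rt-PA, with replicate 3 the highest of the 12 libraries as it was for Dll4. Hes5 counts per Hes1 count were 0.333, 0.556 and 0.325 in Sham, 0 in every Model library, 0, 0.0152 and 0 in rt-PA, and 0.202, 0.202 and 0.133 in rt-PA+Acu, so the order of this ratio over the groups was that of Hes5.

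**Figure D2:**
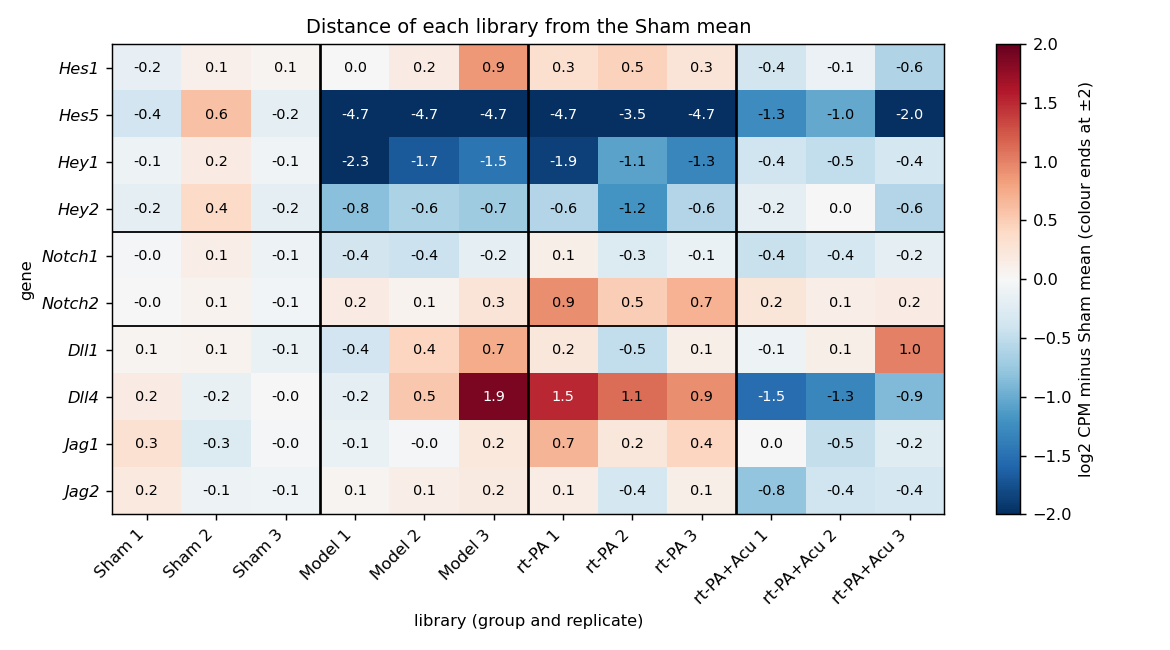
Log2 CPM of each member (rows, in the order targets, receptors, ligands) in each of the 12 libraries (columns) minus the mean of the 3 Sham libraries, as colour and number, with colour ending at 2 on either side. Hes5, Hey1 and Hey2 are below the Sham mean in every Model and rt-PA library, whereas Dll4 is above that mean in 2 of 3 Model and all rt-PA libraries and below it in all rt-PA+Acu libraries. Log2 CPM was computed with a prior count of 2, so the Hes5 values at 0 counts depend on that prior.

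The comparison of Model with Sham asks what the untreated clot does. A gene was called when the edgeR quasi-likelihood test gave an adjusted p under 0.05 and the log2 fold change was over 1 in either direction. Over all genes 21.5% of 12884 were called, 9.43% higher and 12% lower in Model. Of the members 2 of 10 were called, Hes5 and Hey1, both lower, and since these fold changes were known when the members were chosen nothing is read from that count. Hey1 had a log2 fold change of -1.78 ± 0.21 (SE). The fitted fold change of Hes5 rests on the prior count and is left out in favour of its bound. With no count in Model, Hes5 passed the filter on low counts only through the Sham libraries. Hey2 followed at -0.76 ± 0.21, and the receptors differed less, with Notch1 at -0.32 ± 0.10 and Notch2 at 0.18 ± 0.10.

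Dll4 was not called. Its log2 fold change in Model was 1.03 ± 0.48, past the fold threshold but not the adjusted p. Without Model replicate 3 it was 0.23, and without Model replicate 1 it was 1.39 and the gene was called. Hes1 measured 0.40 ± 0.24, Dll1 0.35 ± 0.31, Jag2 0.12 ± 0.11 and Jag1 0.02 ± 0.19 on the log2 scale. Groups did not overlap for 5 of 10 members, against 63.7% of all genes. The median log2 fold change over the members was 0.07, and over all genes tested it was 0.01.

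The comparison of rt-PA with Model asks what late thrombolysis adds. No gene passed both thresholds by edgeR, which is 0% of 12941 genes, while 1284 had an unadjusted p under 0.05 and DESeq2 called 74. Of the 9 members that passed the filter on low counts none was called by either tool. Hes5, with 3 counts over 6 libraries, did not pass it. Notch2 had a log2 fold change of 0.55 ± 0.13 and Jag1 of 0.44 ± 0.17, and these 2 were the members whose groups did not overlap, against 16% of all genes. Dll4 measured 0.21 ± 0.48 with all libraries, 1.00 without Model replicate 3 and -0.15 without Model replicate 1, so its direction rested on single Model libraries. The median over the 9 members was 0.21 on the log2 scale, against 0.00 over all genes.

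The comparison of rt-PA+Acu with rt-PA asks what acupuncture adds to late thrombolysis. Of all genes 15.3% of 12999 were called, 7.17% higher and 8.16% lower. Of the 10 members 2 were called, Hes5 higher and Dll4 lower in rt-PA+Acu, and as these fold changes too were known when the members were chosen nothing is read from the count. Hes5 passed the filter only through the rt-PA+Acu libraries. Dll4 had a log2 fold change of -2.49 ± 0.27 and ranged from -2.70 to -2.31 over the 11 alternatives. Hes5 had 53 counts over the 3 rt-PA+Acu libraries against 3 over the rt-PA libraries, a 20.2-fold ratio of rates with an exact 95% counting interval of 6.54 to 101.0. All 3 of those rt-PA counts came from replicate 2, without which rt-PA held no Hes5 count. The interval covers counting error only. Hey1 lay just outside the fold threshold at 0.97 ± 0.21 and was called in 4 of 11 alternatives, in which it reached at most 1.15.

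The other members differed less. Hes1 was lower in rt-PA+Acu at -0.71 ± 0.19, Jag1 at -0.68 ± 0.19, Notch2 at -0.53 ± 0.13 and Jag2 at -0.49 ± 0.18, while Hey2 was higher at 0.54 ± 0.25. Dll1 measured 0.46 ± 0.37 and Notch1 -0.24 ± 0.13. Groups did not overlap for 6 of 10 members, Hes1, Hes5, Hey1, Notch2, Dll4 and Jag1, against 51.1% of all genes. The median was -0.36 on the log2 scale over the members and -0.00 over all genes. The comparison shares the rt-PA libraries with the one before it, so their values stand side by side and were not correlated.

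Markers of infiltrating myeloid cells were, like Notch2 and Jag1, highest in rt-PA by the group median, but the order of the other groups differed. The 8 listed, of which Mpo was at 0 in every library, summed to 54.9 to 64.3 CPM in Sham, 159 to 236 CPM in Model, 214 to 473 CPM in rt-PA and 24.8 to 40.7 CPM in rt-PA+Acu. From Sham to Model this sum rose, while Jag1 had a log2 fold change of 0.02. In rt-PA+Acu the sum lay below Sham, while Notch2 lay above Sham, at a mean of 45.2 against 39.8 CPM. Replicate 1 of rt-PA was the highest library for this sum and for both genes. In rt-PA against Model the 7 that were tested had a median of 2.04 on the log2 scale and none was called, and against rt-PA all 7 were called lower in rt-PA+Acu. The part of these markers in the Notch2 and Jag1 differences was not tested.

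**Figure D3:**
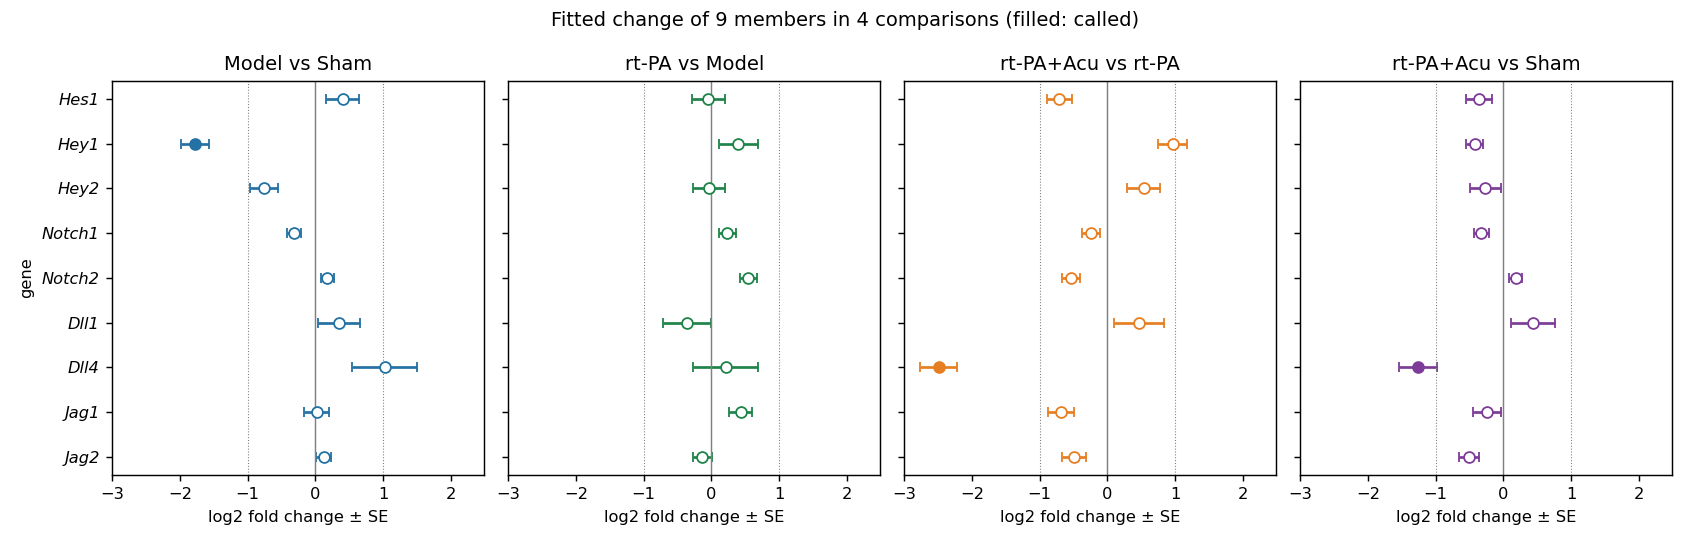
Fitted log2 fold change ± SE of 9 members in the 4 comparisons, with filled symbols for called genes and dotted lines at the fold threshold. Hes5 is left out because its fitted value depends on the prior count. Hey1 lies at -1.78 in Model against Sham and Dll4 at -2.49 in rt-PA+Acu against rt-PA.

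The comparison of rt-PA+Acu with Sham asks how cortex after the clot and both treatments differed from Sham. A difference here need not be left over from the clot. For Dll4 the means of Model and rt-PA, 11.0 and 12.7 CPM, lay above the Sham mean of 5.40 CPM, and only rt-PA+Acu lay below it. Of all genes 2.06% of 12775 were called, 0.916% higher and 1.14% lower. Of the 10 members 1 was called, Dll4, at -1.26 ± 0.28, and that call was lost in 7 of 11 alternatives, namely with 1 fit over all libraries, with the replicate number as a block, without any of the 3 Sham libraries and without rt-PA+Acu replicate 1 or 2, while the value stayed between -1.49 and -1.12. Hes5 measured -1.53 ± 0.41 and was called by DESeq2 alone. Hey1 was at -0.42 ± 0.12, Jag2 at -0.51 ± 0.15 and Notch1 at -0.33 ± 0.11. Groups did not overlap for 6 of 10 members, Hes5, Hey1, Notch1, Notch2, Dll4 and Jag2, against 30.7% of all genes. The median over the members was -0.34, and over all genes 0.02.

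The summed level of endothelial markers moved with Dll4, but not every marker did, and mural markers had another order. The 9 endothelial markers in the table, of 12 listed, summed to 219 to 282 CPM in Sham, 294 to 541 CPM in Model, 427 to 627 CPM in rt-PA and 128 to 152 CPM in rt-PA+Acu, and none was at 0. Between rt-PA+Acu and rt-PA 6 of the 9 were called lower, with a median log2 fold change of -1.47. Between Model and Sham 1 was called higher and 1 lower. By group means Pecam1, Cdh5, Kdr, Egfl7, Esam and Eng were higher in Model than in Sham, and Tek, Tie1 and Emcn were lower. Kdr weighed most in the Model sum, with a mean of 16.4 CPM in Sham and 117 CPM in Model. Emcn measured 12.2 and 5.06 CPM in these groups, and Tek 49.3 and 34.2 CPM. Model replicate 3, the highest library for Dll4, had the highest endothelial sum of its group, 541 CPM, and a level of Pecam1, the endothelial adhesion molecule CD31, of 118 CPM beside 37.9 and 43.7 CPM in the other 2 Model libraries. The 8 mural markers of pericytes and smooth muscle summed to 281 to 313 CPM in Sham, 147 to 189 CPM in Model, 198 to 253 CPM in rt-PA and 147 to 167 CPM in rt-PA+Acu, none at 0. Of these 8, 2 were called higher and 2 lower in rt-PA+Acu against rt-PA. The part of these markers in the Dll4 difference was not tested.

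Pecam1 was also the gene whose level followed Dll4 most closely, and the ratio of the 2 was taken after their values were seen. Dll4 counts per Pecam1 count were 0.139, 0.105 and 0.139 in Sham, 0.125, 0.180 and 0.172 in Model, 0.185, 0.184 and 0.136 in rt-PA, and 0.0955, 0.101 and 0.134 in rt-PA+Acu. The mean ratio was 0.168 ± 0.028 (SD, n = 3) for rt-PA and 0.110 ± 0.021 for rt-PA+Acu, and these groups did not overlap, but the nearest libraries stood at 0.136 and 0.134. Over the same libraries Pecam1 itself was 75.3 ± 10.1 CPM in rt-PA and 20.1 ± 1.41 CPM in rt-PA+Acu. Dll4 counts per Jag1 count were 0.642, 0.672 and 0.505 for rt-PA and 0.115, 0.192 and 0.221 for rt-PA+Acu, beside 0.323 to 0.387 in Sham and 0.341 to 1.15 in Model. By the Dll4 per Jag1 ratio the rt-PA+Acu libraries were below every other library, while by Dll4 per Pecam1 they overlapped with Sham and Model. Since Pecam1 was the gene nearest to Dll4, their ratio could vary little, and nothing is read from that overlap.

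**Figure D4:**
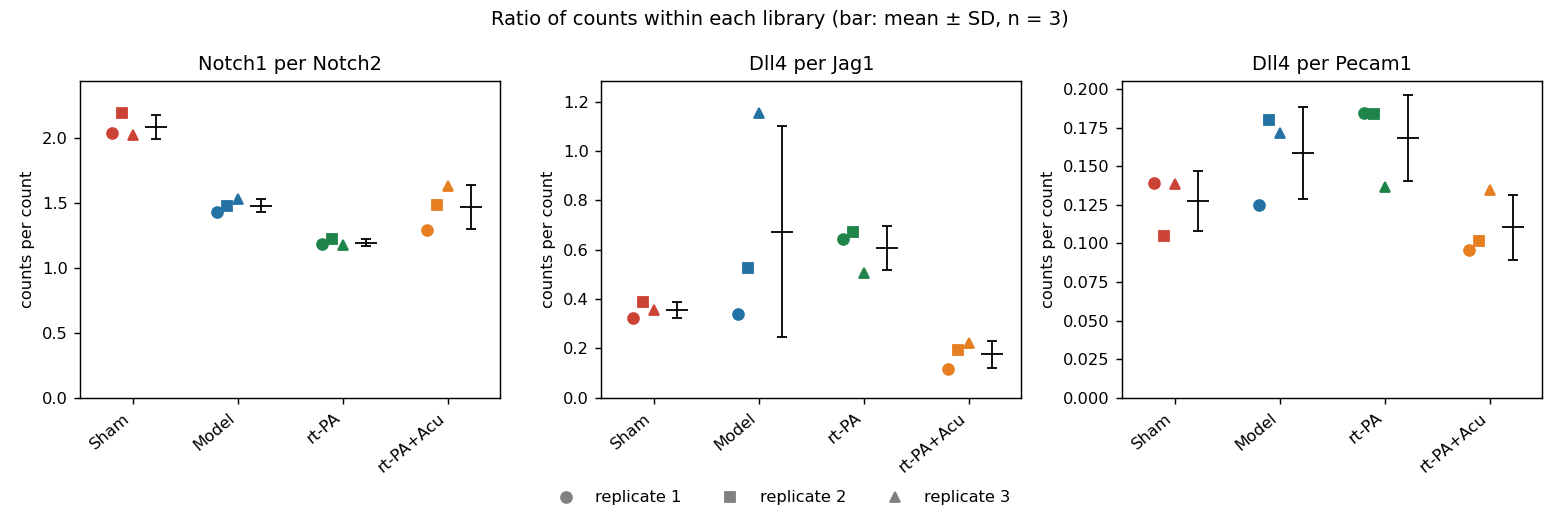
Ratio of counts within each library for Notch1 per Notch2, Dll4 per Jag1 and Dll4 per Pecam1, on linear axes from 0, with the mean ± SD (n = 3) beside each group and replicates as circle, square and triangle. Notch1 per Notch2 is highest in Sham and lowest in rt-PA, Dll4 per Jag1 is lowest in rt-PA+Acu, and Dll4 per Pecam1 runs from 0.0955 to 0.185 over all libraries.

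Many markers of glial types moved with Hes5 and Hey1, but not all did, and the pattern was not particular to glia. Of the 10 astrocyte markers 7 were called lower and 1, Gfap, higher in Model against Sham, and 5 were called higher and none lower in rt-PA+Acu against rt-PA. The gap junction gene Gjb6 measured 99.4 CPM in Sham, 3.80 CPM in Model, 4.74 CPM in rt-PA and 46.0 CPM in rt-PA+Acu, and the folate enzyme gene Aldh1l1 40.3, 12.1, 12.1 and 21.7 CPM in that order of groups. Gfap, the filament protein of reactive astrocytes, measured 392 CPM in Sham and 3340, 3250 and 2920 CPM in Model, rt-PA and rt-PA+Acu. The summed level of all 10 was 6690 to 7745 CPM in Sham, 4853 to 6749 CPM in Model, 5286 to 6298 CPM in rt-PA and 7021 to 8395 CPM in rt-PA+Acu, with no marker at 0. Of the 6 oligodendrocyte markers, none at 0, 5 were called lower in Model than in Sham, and their sum ran over 12008 to 17913 CPM in Sham, 1672 to 8505 CPM in Model, 2693 to 11426 CPM in rt-PA and 3222 to 21077 CPM in rt-PA+Acu. The 4 markers of oligodendrocyte precursors in the table, none at 0, summed to 375 to 469 CPM in Sham, 96.4 to 144 CPM in Model, 174 to 200 CPM in rt-PA and 177 to 383 CPM in rt-PA+Acu. The 6 microglial markers, with Siglech at 0 in all groups but rt-PA, summed to 467 to 575 CPM in Sham and 362 to 427 CPM in the other groups. Among them the purinergic receptor gene P2ry12 measured 66.1 CPM in Sham, 5.23 CPM in Model, 3.89 CPM in rt-PA and 32.5 CPM in rt-PA+Acu. The microglial sum did not follow the order of Hes5 and Hey1, nor did the astrocyte gene Sox9, at 23.0, 22.9, 20.4 and 34.1 CPM in that order of groups. Of the precursor markers 2 of 4, and of the microglial markers 2 of 5 tested, were called lower in Model against Sham. In rt-PA+Acu against rt-PA 1 of 4 and 1 of 5 were called higher, and no oligodendrocyte marker was called. Of the 9 neuronal markers 3 were called lower in Model against Sham and 2 higher in rt-PA+Acu against rt-PA. None was called the other way, but the means were split. Rbfox3, Syt1, Map2, Slc17a7 and Camk2a were lower in Model than in Sham, and Snap25, Nefl, Gad1 and Gad2 were higher. Gad1 measured 267 CPM in Sham, 484 CPM in Model, 497 CPM in rt-PA and 405 CPM in rt-PA+Acu. Of the 8 mural markers 2 were called lower in Model against Sham, and 2 higher and 2 lower in rt-PA+Acu against rt-PA. The part of these markers in the Hes5 and Hey1 differences was not tested.

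The rest of the pathway was followed in a list of 46 further genes, comprising other receptors and ligands, glycosyltransferases, proteases, ubiquitin ligases and endocytic adaptors, the nuclear complex, other targets and proneural genes. This list too was chosen with earlier results of these libraries known, so its adjusted p-values are no independent evidence. In Model against Sham 9 of 40 tested were called, a share near the 21.5% of all genes, 4 higher and 5 lower, with a median log2 fold change of -0.10 against 0.01 over all genes. The DNA-binding partner itself, Rbpj, rose from 76.7 ± 2.17 CPM in Sham to 229 ± 58.9 CPM in Model, a log2 fold change of 1.59 ± 0.18 (edgeR adjusted p = 0.000194). The coactivator Maml2 rose by 1.10 ± 0.22 (edgeR adjusted p = 0.00331). Heyl, a Hes-related target of mural cells, fell by 1.99 on the log2 scale, from 37.7 ± 9.44 to 9.46 ± 2.62 CPM (edgeR adjusted p = 0.000338). Notch3, the receptor of pericytes and smooth muscle, fell by 1.08, from 28.2 ± 2.01 to 13.3 ± 3.79 CPM (edgeR adjusted p = 0.00273).

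Of the remaining called genes in Model, Dtx1, a Deltex ubiquitin ligase, rose by 1.27 on the log2 scale, and its relative Dtx3 fell by 1.15. Their direction thus differed within 1 family, as it did for the noncanonical ligands, where Dlk1 rose by 1.63 and Dlk2 fell by 1.30. Neurl1, a neuronal ubiquitin ligase for ligands, fell by 1.37 to 148 CPM. None of the 5 glycosyltransferases and none of the 9 genes for cleavage was past the fold threshold and so called in this comparison, although 3 and 4 of them passed the adjusted p, among the latter Furin, a protease that cuts the receptor precursor, at 0.80 ± 0.09 (edgeR adjusted p = 0.000225). Notch3 was not called without Model replicate 1, Dlk1 without Model replicate 1 or 2, and Maml2 without Sham replicate 2 or Model replicate 2.

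In rt-PA against Model none of 41 was called by edgeR or DESeq2, and 2 had an unadjusted p under 0.05. In rt-PA+Acu against rt-PA 8 of 40 were called, beside 15.3% of all genes, 2 higher and 6 lower, with a median of 0.01 against -0.00 over all genes. Rbpj fell from 231 ± 40.2 to 84.3 ± 21.0 CPM, by 1.46 on the log2 scale (edgeR adjusted p = 0.00317), and Maml2 fell by 1.14 (edgeR adjusted p = 0.00139). Heyl rose by 1.53 ± 0.29, from 8.38 ± 2.30 to 24.2 ± 6.86 CPM (edgeR adjusted p = 0.00744). Notch4, an endothelial receptor, fell from 31.6 ± 4.17 to 13.5 ± 1.48 CPM (edgeR adjusted p = 0.00241). Dlk1 fell by 2.20 and the Fringe glycosyltransferase Mfng fell by 1.44, while Dlk2 rose by 1.39 on the log2 scale. Furin fell by 1.04. The calls of Mfng and Furin were lost without rt-PA replicate 1, and that of Furin also without rt-PA+Acu replicate 1 or 2.

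In rt-PA+Acu against Sham 2 of 40 were called, beside 2.06% of all genes, both lower. Notch4 was 30.6 ± 0.95 CPM in Sham and fell by 1.18 ± 0.13 on the log2 scale (edgeR adjusted p = 0.00382), a call kept in all 11 alternatives. Neurl1 fell by 1.09 ± 0.15 (edgeR adjusted p = 0.00885), and was not called without Sham replicate 2 or without rt-PA+Acu replicate 3. Rbpj measured 0.14 ± 0.17 and Heyl -0.64 ± 0.25 in this comparison, and neither was called. Notch4 in the Model libraries was 22.8, 18.2 and 46.8 CPM, with replicate 3 the highest of the 12 libraries, as for Dll4 and Hes1. Its means in Model and rt-PA, 29.3 and 31.6 CPM, were near that of Sham.

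**Figure D5:**
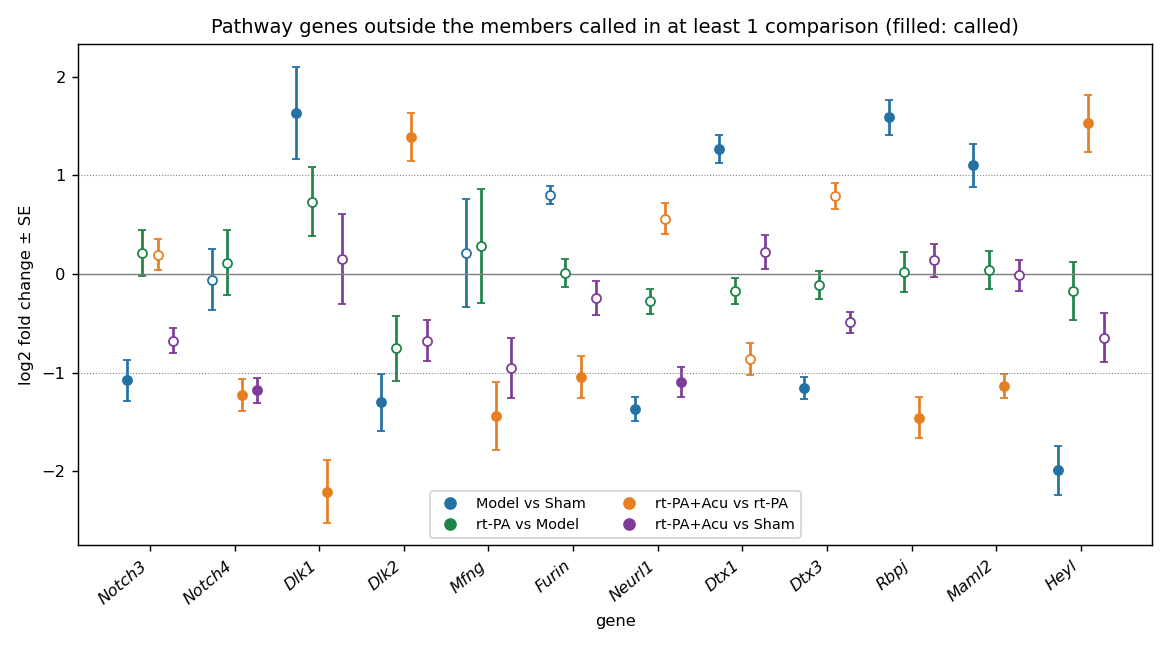
Log2 fold change ± SE of the 12 pathway genes outside the members that were called in at least 1 of the 4 comparisons, one colour per comparison, filled where called. Rbpj and Maml2 lie above 0 for Model vs Sham and below 0 for rt-PA+Acu vs rt-PA, Heyl goes the other way, and Notch4 lies below 0 where rt-PA+Acu is set against rt-PA or Sham.

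The genes whose pattern was most like each member were sought among 13288 others by Pearson's r of log2 CPM over the 12 libraries. These libraries share their groups, so r mostly follows the differences between groups and is given as a description. For Hes5 they were Ap1g2 (r = 0.989) and Trib2 (r = 0.987), and for Hey1 Gsta6 and Yipf1 (both r = 0.980). Hey2 was nearest to P2ry14 and Chmp3 (both r = 0.925). Hes1 was nearest to Fam43a (r = 0.929) and to Nfkbia (r = 0.915), the inhibitor of NF-kappaB, and Nfkbia was also second for Dll4 (r = 0.972), after Pecam1 (r = 0.978).

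Notch1 was nearest to Cd248 (r = 0.923), a pericyte and fibroblast antigen, and to the laminin chain Lamb2 (r = 0.896). Notch2 was nearest to Sh3tc1 (r = 0.948) and Parva (r = 0.918), Jag1 to RT1-Ba (r = 0.896) and the collagen Col15a1 (r = 0.894), and Jag2 to Pde3a (r = 0.964) and Tmem259 (r = 0.917). Dll1 had the lowest values, 0.847 with Cutc and 0.841 with Slc29a4. Among the members themselves the highest r were between Hes5 and Hey1 (0.947) and between Hes1 and Dll4 (0.875), and the lowest was between Hes5 and Dll4 (-0.629). Both values for Hes5 depend in part on the prior count.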

How the data were processed

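Cortical poly(A) RNA of 12 rats was sequenced with a stranded kit. The authors deposited 1 table of counts per gene, and the submitters' processing notes name STAR 2.7.10a, featureCounts 2.0.1, Salmon 1.9.0 and the rat build mRatBN7.2. Which tool gave the deposited counts, the annotation release and the use of molecular identifiers are not given in the sources used here. Libraries held 11678450 to 13616935 counts, and a count of 0 allows up to 3 counts per library.

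The members and lists were chosen with earlier results of these data known. The 6 libraries of each comparison were fitted alone in edgeR 4.0.16 (filterByExpr, TMM, quasi-likelihood test, Benjamini-Hochberg adjustment over all tested genes) in R 4.3.3, with an adjusted p threshold of 0.05 and an absolute log2 fold change threshold of 1. All 10 members passed the filter over the 4 groups, but Hes5 did so only through the Sham and rt-PA+Acu libraries. Alternatives were DESeq2 1.42.0, RLE size factors, no filter, 1 fit over 12 libraries, the replicate number as a block, and leaving out each library. The code was tested on simulated data. For correlations a prior count of 2 entered log2 CPM. Genes named were the members, called pathway genes, the 2 nearest genes per member and genes of the marker lists given beside a member. No 2 libraries of a group were identical or agreed within counting noise. p-values weigh a difference between groups against the spread between these samples.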

Additional observations from a re-analysis of the deposited data

How the results depend on the processing

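Calls of members describe values already known. Of the 10 members 1 was called in rt-PA+Acu against Sham, and 2 by DESeq2 and 0 with the replicate block. Over all members 421 of 429 values kept their direction, and the 8 others belonged to differences that were not called. For rt-PA against Model the count of called genes was 0, but 74 by DESeq2, 2 with 1 fit over 12 libraries, and 0 to 3 when 1 library was left out, with 3 reached without Model replicate 3. For rt-PA+Acu against Sham it was 263, but 422 by DESeq2 and, with 1 library left out, 82 to 359, with 146, 82 and 133 without Sham replicates 1, 2 and 3. The called genes of the pathway list there numbered 2, and 1 to 3 with 1 library left out. The cause of these shifts was not tested. Under the other alternatives the counts over all genes and over the pathway list stayed within 1.5 times.

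With the replicate block 2756, 0, 1862 and 194 genes were called in the 4 comparisons, in place of 2765, 0, 1993 and 263. Deviations of same-numbered libraries correlated between -0.121 and 0.146, and every library matched its own number best only in Model against Sham. With 3 libraries a group and correlations this weak, the check cannot settle whether the numbers pair the samples. At this depth levels of Hes5 under 3 counts a library could not be ranked, and with 3 rats a group the Dll4 difference between Model and Sham lay within the spread of Model.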
